A study of Capra hircus with 3 samples.

Results

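LOC106503383 and LOC102173795 are long non-coding RNA (lncRNA) genes of the goat that the study tied to families of small RNAs, the first to the C/D box small nucleolar RNA family SNORD113 and the second to the microRNA family mir-544. They were taken by their NCBI gene IDs and are 2 of the 441 annotated lncRNA genes with a deposited value, among 49433 annotated genes and assembled loci in all. Mammary gland tissue came from 5 Laoshan dairy goats, 4 years old and in the third lactation, which were sampled by surgery in early lactation (10 days after parturition), peak lactation (90 days) and late lactation (210 days). All groups share the same breed and tissue, and no other treatment or genotype separates them. RNA of the 5 goats was mixed in equal parts into 1 library per stage, so no animal can be told from another, the spread among goats is unknown, and no p-value or error is given for any value below. Levels are the FPKM that the authors deposited, that is, fragments scaled to transcript length and to the fragments mapped in the library, so that levels of different genes are compared per length.

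In mammals, both small RNA families are known from the imprinted DLK1-DIO3 domain. Its protein-coding genes DLK1, RTL1 and DIO3 are expressed from the paternal chromosome, while the maternal chromosome gives rise to long non-coding transcripts such as MEG3 and MEG8, to arrays of C/D box snoRNAs and to a large group of microRNAs that includes mir-544. The small RNAs are processed from these long transcripts. FPKM of libraries of long RNA, as here, describe the long transcripts and not mature microRNAs or snoRNAs.

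The 2 genes did not lie together. LOC106503383 spanned 12930 nt of scaffold NW_005100907.1, from 3225441 to 3238370, and LOC102173795 spanned 3362 nt of scaffold NW_005100922.1, from 1095980 to 1099341. The assembly of these scaffolds is not named in the deposited table, and the intervals do not tell exon from intron. In the RefSeq gene table of the ARS1.2 assembly, used for gene order only, the pair also lay on different chromosomes.

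Gene order placed LOC106503383 inside the DLK1-DIO3 domain. In ARS1.2, 55 genes were listed between DLK1 and DIO3, of which 45 were microRNAs, 8 lncRNAs and 2 protein-coding genes. LOC106503383 was separated from DLK1 by 11 of them and from DIO3 by 43. MIR544, the microRNA gene that gives the mir-544 family its name, was on the same chromosome as LOC106503383, with 23 genes between them, 22 of these microRNAs. Of the 55 genes, 6 had a deposited FPKM, namely LOC102191280, MIR136, LOC102168946, LOC106503383, MIR656 and LOC102169338. They stood on the deposited scaffold in the same order.

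The position of LOC102173795 did not bear out a place in that domain. Its 40 nearest genes in ARS1.2, 20 on each side, were 28 tRNA genes and 12 protein-coding genes, with no microRNA among them. Its neighbours on the scaffold included PGBD1, ZSCAN26, ZKSCAN8, ZNF184, ZNF322, ABT1 and BTN1A1, which in mammals belong to the extended class I part of the major histocompatibility complex. The study's family match on this transcript was on the reverse strand, so LOC102173795 is described here by its position and not as a mir-544 host. Further genes that the study tied to mir-544 (LOC108637982) and to MEG8 (LOC108638533) had no deposited FPKM under their IDs.

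The library labelled peak lactation stood apart in cell type markers, and these shifts run alongside the results below. Over 8 of 10 listed markers of secretory epithelium that were found, summed FPKM was 210828 in the library labelled early, 60243.9 in that labelled peak and 156780 in that labelled late. The order of early and late rests on the milk protein gene LALBA, at 70053 FPKM in the early library and read as 0 in the late-labelled column, and without it the sums were 140775, 45030 and 156780 FPKM. The alpha-S1 casein gene CSN1S1 alone had 25057, 12017 and 39445 FPKM. The keratin gene KRT18, also on this list, moved the other way and was highest in the peak library, at 20.968, 32.0335 and 19.5459 FPKM. At these levels KRT18 hardly enters the sums, which mostly reflect milk protein genes. The 5 immune markers summed to 288, 476 and 349 FPKM, of which JCHAIN, a gene of antibody-secreting cells, made up 266, 429 and 337. Without JCHAIN the sums were 22.1, 47.5 and 12.5 FPKM, with 17.6, 39.9 and 8.08 FPKM for the pan-leukocyte gene PTPRC. The T cell gene CD3E was listed at 0 in the early and peak libraries. Sums for 5 of 5 myoepithelial (255, 247 and 259) and 3 of 3 endothelial markers (89.0, 81.6 and 90.9) differed less. The myoepithelial genes moved apart, with KRT5 (73.2, 96.7 and 56.6) highest in the peak library. OXTR (3.83, 1.14 and 5.43), ACTA2 and MYH11 were lowest there. The 6 fibroblast markers summed to 664, 549 and 542 but moved apart, with DCN (131, 254 and 106) and PDGFRA (13.7, 28.0 and 11.3) highest and the collagen genes COL1A2 (138, 65.8 and 106) and COL3A1 (255, 123 and 220) lowest in the peak library. Of the adipocyte markers, 2 of 4 were found and summed to 16.4, 4.93 and 6.16. The part of these shifts in the levels of the lncRNA genes was not tested, and in pooled tissue fewer cells of a type cannot be told apart from less RNA per cell. A listed 0, as for LALBA, is not taken here as evidence that a transcript is absent. Read numbers per locus are unknown. The sources used here also left open which column belongs to the peak and which to the late stage, because the study's own lncRNA listing ranks these stages for LOC102173795 in another order. Each library is therefore called by its label.

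LOC106503383 was low in the library labelled peak. It had 2.42 FPKM in the early library, 1.18 in the peak library and 3.35 in the late library. The peak library held the lowest value and the late library the highest. Peak over early, the log2 ratio was -1.04, a 2.06-fold lower level. Late over peak it was 1.51 (2.84-fold higher), and late over early 0.47 (1.38-fold higher). In all, 15.4% of genes and loci were at least 2-fold lower in the peak than in the early library, and 17.0% were at least 2-fold higher in the late than in the peak library. Among annotated lncRNA genes, 51.7% were below LOC106503383 in the early library, 31.7% in the peak library and 61.0% in the late library, so it ranked lower within the class in the peak library than in the others. It was a weakly expressed transcript beside coding genes, of which 23.2%, 8.33% and 31.9% were below it.

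The interval of LOC106503383 also held 3 assembled loci without a gene ID, with the same first and last base. XLOC_041480 had 3.17, 1.17 and 2.66 FPKM in the early, peak and late libraries. XLOC_041481 had 5.31, 1.41 and 7.17 FPKM, and XLOC_041482 had 2.73, 1.88 and 4.77 FPKM. All 3 were lowest in the peak library, as was the annotated gene. The late library was the highest for XLOC_041481 and XLOC_041482, and the early library for XLOC_041480. Summed over the 4 entries, the interval held 13.6, 5.64 and 17.9 FPKM, so most of the level assembled there carried no gene ID. Reads of entries that share an interval could have been divided among them, and the strand used in counting is not given in the sources used here.

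**Figure D1:**
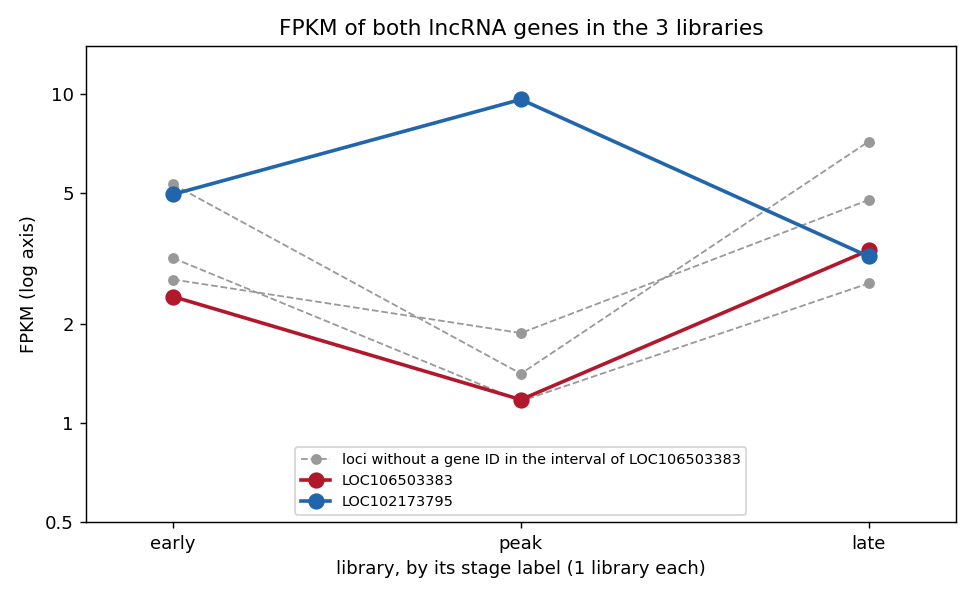
FPKM (log axis) of LOC106503383, of the 3 loci that share its interval and of LOC102173795, each point being 1 library named by its stage label and lines only joining points of the same gene or locus. LOC106503383 and the 3 loci of its interval dip in the library labelled peak, where LOC102173795 reaches 9.63 FPKM.

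LOC102173795 had the opposite order, with its highest level in the library labelled peak. It had 4.96 FPKM in the early library, 9.63 in the peak library and 3.21 in the late library. The log2 ratio was 0.96 peak over early, a 1.94-fold higher level that stayed just under 2-fold, while 19.7% of all genes and loci were at least 2-fold higher. Late over peak, LOC102173795 was 3.0-fold lower (log2 ratio -1.58), beside 24.9% of all genes and loci at least 2-fold lower. Late over early it was 1.54-fold lower (log2 ratio -0.63). It stood high among lncRNA genes, of which 70.5%, 84.6% and 59.6% were below it in the early, peak and late libraries. Of the protein-coding genes, 39.5%, 60.9% and 31.0% were below it. No other entry shared its interval. The order of the pair therefore differed by library, with LOC102173795 above LOC106503383 in the early and peak libraries and both near the same level in the late library. Peak-highest entries were common, at 45.2% of all genes and loci, and peak-lowest entries made up 36.0%. Both members' ratios use the same 3 libraries and are not independent of each other.

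Most entries around LOC106503383 were low in the library labelled peak, with MIR656 and a few loci as exceptions. Within 500 kb on either side lay 34 other entries, of which 8 were genes with an ID and 26 were loci without one. Peak over early, 22 of the 34 (64.7%) were at least 2-fold lower and 1 (2.94%) was at least 2-fold higher, with a median log2 ratio of -1.20. Over all genes and loci the median was 0.09. Late over peak, 27 of 34 (79.4%) were at least 2-fold higher and 0 lower, with a median log2 ratio of 1.59 against -0.12 over all. DLK1 is among the 22 and the 27, and counts there only against a listed 0. Late over early, 5 were at least 2-fold higher and 1 lower, with a median of 0.43, while 10.2% of all genes and loci were higher and 14.7% lower. The peak library held the lowest level of 29 of the 34 entries (85.3%). The counts at 2-fold depend on the low levels of these entries, since with a pseudocount of 1 only 3 were at least 2-fold lower peak over early and 14 higher late over peak, and at 4-fold 5 and 11. Neighbouring entries may be pieces of the same long transcript and share their reads' source, so the 34 are not independent, and no test was made.

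The rest of the scaffold was counted in the same way. On the rest of NW_005100907.1, 29 of 212 entries above 0 (13.7%) were at least 2-fold lower in the peak than in the early library and 50 (23.6%) higher, with a median log2 ratio of 0.23. Between 500 and 1000 kb from LOC106503383, 3 of 29 entries were at least 2-fold lower and 4 higher, with a median of 0.06. Late over peak, the rest of the scaffold had 23 of 213 entries (10.8%) at least 2-fold higher and 60 (28.2%) lower. Entries at least 2-fold lower in the peak library than in the early one were thus 64.7% of the window and near the share over all genes outside it.

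**Figure D2:**
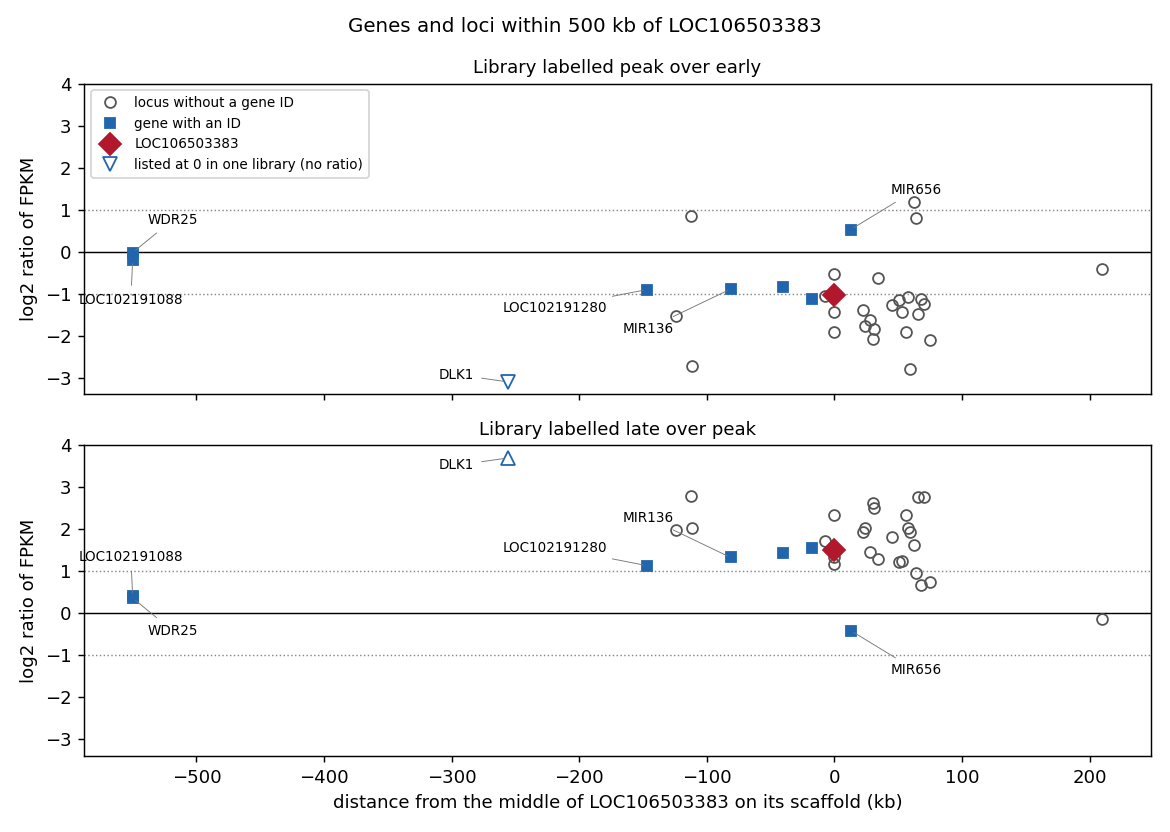
Log2 ratio of FPKM for each gene or locus within 500 kb of LOC106503383, against the distance of its middle from the middle of LOC106503383 (kb), for peak over early (top) and late over peak (bottom), with dotted lines at 2-fold and open triangles for DLK1, which is listed at 0 in the peak library and has no ratio. From DLK1 onward most entries lie below 0 in the top panel and above 0 in the bottom panel, while WDR25 and LOC102191088 at the left edge lie near 0 in the top panel.

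DLK1, the paternally expressed gene for a membrane protein of the Notch ligand family that holds back adipocyte formation, marks one end of the domain. It lay 246.3 kb from LOC106503383, from 2972481 to 2979170. DLK1 had 1.56 FPKM in the early library, was listed at 0 in the peak library and had 1.78 in the late library. Its early and late levels were alike, and no ratio is given against the 0. RTL1 and DIO3, the other paternally expressed genes, were not found among the deposited entries, nor were MEG3, MEG8 and MEG9 by symbol.

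Beyond DLK1 followed entries on the side of the long non-coding transcripts. LOC102191280, a gene that the table classes as protein-coding and that lies between DLK1 and RTL1 in ARS1.2, where other mammals carry MEG3, had 7.44, 3.98 and 8.76 FPKM. Its log2 ratio was -0.90 peak over early, short of 2-fold, and 1.14 late over peak. The entry under MIR136, a microRNA gene that in mammals lies antisense to RTL1, spanned 55215 nt and had 9.79, 5.28 and 13.3 FPKM (log2 ratios -0.89 and 1.33). Its span is that of a long assembled transcript and not of a microRNA. The entry is made of 2 rows with the same interval, at 2.28, 0.974 and 3.07 FPKM and at 7.52, 4.31 and 10.2 FPKM, both lowest in the peak library.

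Next to it, gene ID 102168394, which has no match in the gene table, had 12.4, 6.94 and 18.7 FPKM from 3178214 to 3205531. Its log2 ratios were -0.84 peak over early and 1.43 late over peak. LOC102168946, a lncRNA gene that ended 3.7 kb before LOC106503383, had 8.13, 3.72 and 10.9 FPKM, with log2 ratios of -1.13 and 1.55. Both genes, each a sum of 2 rows, had the order of libraries of LOC106503383, with late highest and peak lowest. They were more abundant per length than LOC106503383 taken alone in every library. The less abundant row of LOC102168946, at 0.965 FPKM in the peak library, was below LOC106503383 there. With all entries of its interval summed, LOC106503383 had 13.6, 5.64 and 17.9 FPKM. That was above LOC102168946 in every library, and above gene ID 102168394 only in the early library. Across the 8 genes with an ID, 7 were lower in the peak than in the early library, 2 of them at least 2-fold. These were LOC102168946 and DLK1, the latter only against a listed 0. Beside them stand 15.4% of all genes and loci, a pool that includes the loci without an ID (18.7%). The share over genes with an ID alone was not counted. All 8 were higher in the late than in the early library. How many of all genes and loci were lower or higher by any amount in these comparisons was not counted.

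MIR656 was the exception on the other side of LOC106503383. Its entry began 0.1 kb after that gene, spanned 12572 nt and had 14.3, 20.6 and 15.5 FPKM. The second of these was the highest value of any entry within 500 kb, and MIR656 was the only one of the 34 that was highest in the peak library. MIR656 is a microRNA gene of the large group between MEG8 and DIO3, and ARS1.2 lists 39 genes, 38 of them microRNAs, between it and LOC106503383. The entry is the sum of 2 rows, a major row at 13.5, 20.3 and 15.5 FPKM and a minor row at 0.859, 0.387 and 0 FPKM. The log2 ratio of the sum was 0.53 peak over early and -0.41 late over peak, both under 2-fold.

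The 26 loci without a gene ID were shifted further than the genes with an ID, with a median log2 ratio peak over early of -1.42 against -0.86. Their FPKM ran from 0.185 to 5.31 in the early library (median 1.41), from 0.201 to 1.88 in the peak library (median 0.544) and from 0.646 to 7.17 in the late library (median 1.86). Most of the values in the peak library were thus under 1 FPKM. Peak over early, 20 of the 26 were at least 2-fold lower, beside 18.7% of all loci without an ID. Late over peak, 22 of the 26 were at least 2-fold higher, beside 20.3%. The peak library held the lowest level of 22 of the 26, against 33.8% of all such loci. XLOC_041478, with the highest mean of those before LOC106503383 and 0.1 kb from it, had 3.14, 1.52 and 5.01 FPKM.

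Downstream of MIR656, the low levels in the peak library went on as far as XLOC_041501, 67.9 kb from LOC106503383, at 1.66, 0.388 and 0.646 FPKM, a locus named after its values were seen. The next entry, XLOC_041502 at 203.1 kb, had the highest mean over the 3 libraries among the loci on that side and had 2.41, 1.82 and 1.66 FPKM, with the late library lowest. Further out, next to DIO3, the lncRNA gene LOC102169338 had 0.621, 1.47 and 0.840 FPKM, which put its highest level in the peak library (log2 ratio 1.24 over early). It was also named after its values were seen, as were XLOC_041472, XLOC_041496 and XLOC_041497, which with MIR656 were the entries within 500 kb that were higher in the peak than in the early library. Their log2 ratios peak over early were 0.85, 1.17 and 0.81, and each had its highest level in the late library.

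**Figure D3:**
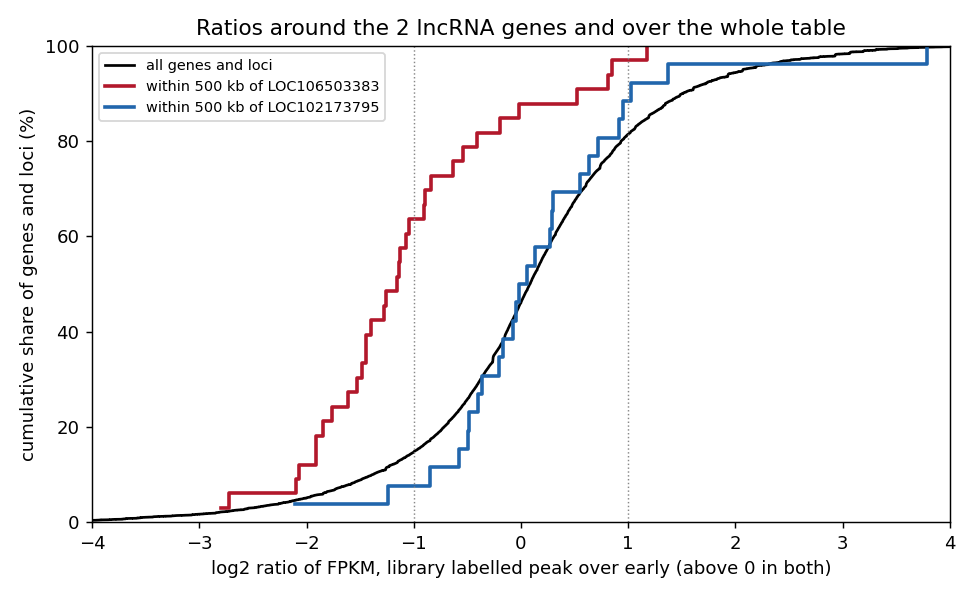
Cumulative share (%) of entries up to each log2 ratio of FPKM, peak over early, for all 48013 genes and loci above 0 in both libraries, for the 33 within 500 kb of LOC106503383 and for the 26 within 500 kb of LOC102173795, with dotted lines at 2-fold. The curve for LOC106503383 is shifted to the left (median of its 34 entries -1.20), while that for LOC102173795 runs near the curve of all entries in its lower part (median 0.02).

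On the other side of DLK1, genes that flank the domain in mammals were listed for comparison, and 16 of 25 symbols of the list, the domain's own genes included, were found. Peak over early, 0 of the 16 were at least 2-fold higher and 3 lower, namely DLK1, SLC25A29 and SLC25A47, with a median log2 ratio of -0.13. DLK1 and SLC25A47 count only against a listed 0. Of all genes and loci, 15.4% were at least 2-fold lower. That pool includes the loci without a gene ID, of which 18.7% were lower. The share over genes with an ID alone was not counted. Late over peak, these 3 were at least 2-fold higher and DEGS2 lower, with a median of 0.31. Late over early, none of the 16 passed 2-fold, with a median of 0.18. SLC25A29, a mitochondrial carrier of basic amino acids, had 14.8, 5.71 and 17.3 FPKM, the same order as LOC106503383 at a higher level. SLC25A47, another mitochondrial carrier, had 1.62, 0 and 1.70 FPKM, and DEGS2, an enzyme of sphingolipid synthesis, had 1.46, 2.61 and 1.0 FPKM.

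The genes nearest to DLK1 on that side, other than the mitochondrial carriers, differed little. WDR25, a WD-repeat gene, had 2.69, 2.65 and 3.42 FPKM, and the lncRNA gene LOC102191088 in the same interval had 2.46, 2.15 and 2.84. WARS, the cytosolic tryptophanyl-tRNA synthetase, had 95.9, 71.2 and 90.3 FPKM, and YY1, a zinc finger transcription factor, 12.7, 11.2 and 14.5. These 4 were lowest in the peak library too, but by less than 2-fold. Farther out were CCNK (2.84, 3.52 and 3.74 FPKM), CCDC85C (3.04, 3.08 and 4.20), HHIPL1 (2.36, 1.94 and 2.48) and EML1 (2.0, 3.45 and 2.62). Beyond DIO3 were PPP2R5C (21, 18.2 and 17.7 FPKM), DYNC1H1 (47.1, 45.2 and 55.1), HSP90AA1 (164, 188 and 134) and WDR20 (7.05, 5.40 and 5.49). SETD3 lay on another scaffold, with 8.07, 8.28 and 9.13 FPKM. None of these 9 was 2-fold apart in any comparison.

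Around LOC102173795, most entries were lower in the library labelled late. Within 500 kb lay 26 other entries, 18 genes with an ID and 8 loci without one. Peak over early, 3 of them (11.5%) were at least 2-fold higher and 2 (7.69%) lower, with a median log2 ratio of 0.02. Late over peak, 2 (7.69%) were at least 2-fold higher and 7 (26.9%) lower, with a median of -0.70 against -0.12 over all genes and loci. Of the 26, 21 were lower by any amount. Late over early, 2 were at least 2-fold higher and 5 (19.2%) lower, with a median of -0.42 against -0.05 over all genes and loci. Of the 26, 20 were lower by any amount. The shares at 2-fold lay at or below those of all genes and loci. The exceptions, a little above, were the shares lower in the late library. How many of all genes and loci were lower by any amount was not counted. Between 500 and 1000 kb away, the medians over 44 entries were 0.04 peak over early, -0.37 late over early and -0.50 late over peak. On the rest of the scaffold, the medians over 60 entries were -0.05 peak over early, -0.22 late over early and -0.25 late over peak. The peak library was highest for 12 of the 26 (46.2%), near the 45.2% over all.

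**Figure D4:**
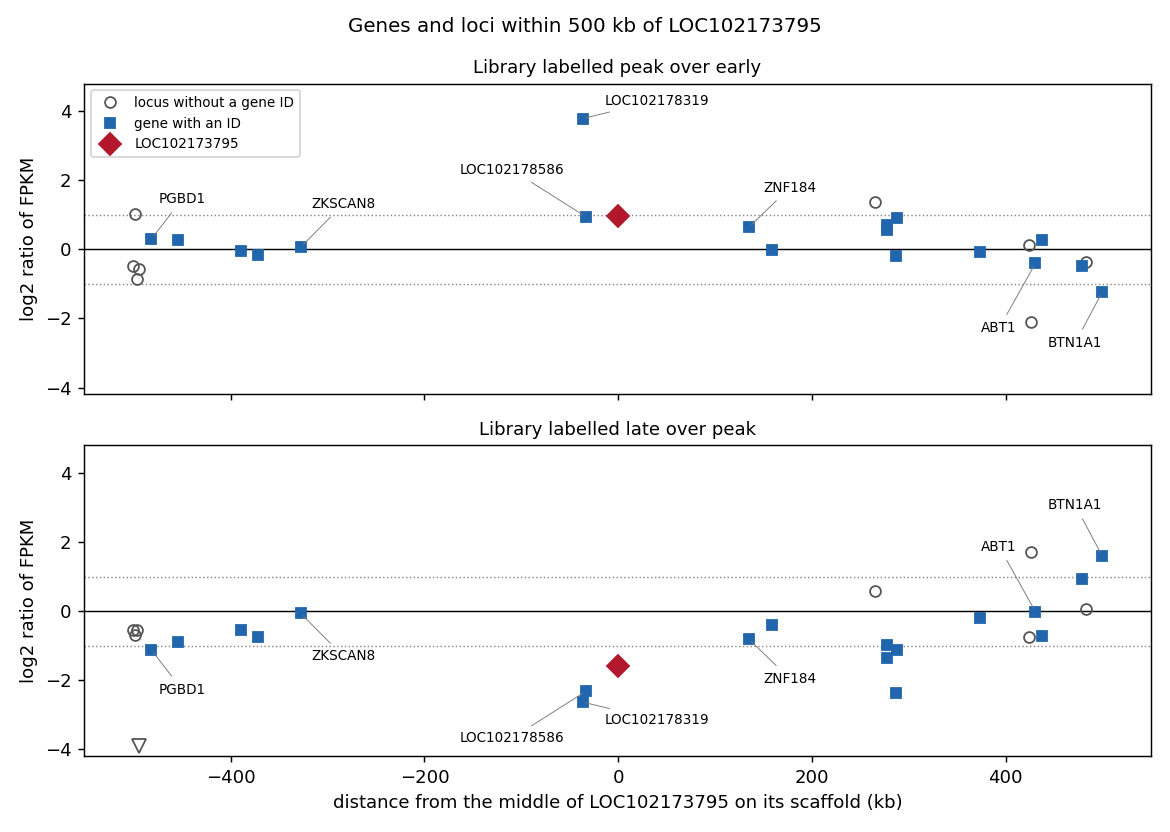
Log2 ratio of FPKM for each gene or locus within 500 kb of LOC102173795, against the distance of its middle from the middle of LOC102173795 (kb), for peak over early (top) and late over peak (bottom), with dotted lines at 2-fold and an open triangle for a locus listed at 0 in the late library. Entries scatter around 0 in the top panel, with LOC102178319 at 3.79, and BTN1A1 at the right edge changes sign between the panels.

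The nearest entries to LOC102173795 were 2 short protein-coding genes. LOC102178319, 34.8 kb away and 439 nt long, had 0.501, 6.92 and 1.12 FPKM, with a log2 ratio of 3.79 peak over early. LOC102178586, 31.7 kb away and 229 nt long, had 16.8, 32.5 and 6.49 FPKM. Both had their highest level in the library labelled peak, as did LOC102173795, and LOC102178586 had the same order of all 3 libraries, with log2 ratios of 0.95 peak over early and -2.33 late over peak. FPKM of genes this short rest on few positions.

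On the higher side, zinc finger genes of the region came first. ZNF184, at 123.2 kb, had 2.81, 4.37 and 2.50 FPKM, the order of LOC102173795, and ZNF391 had 0.843, 0.831 and 0.626. Then came a group of short protein-coding genes, LOC102178027 (4.98, 7.30 and 2.85 FPKM), LOC102178318 (29.7, 48.8 and 24.7), LOC102178584 (3.01, 5.67 and 2.58) and LOC102178870 (8.52, 7.40 and 1.44). All but LOC102178870 were highest in the peak library, and all 4 were lowest in the late library. LOC102178027 and LOC102178318 share an interval.

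Farther on, ZNF322, another zinc finger gene, had 7.31, 6.94 and 6.03 FPKM, ABT1, an activator of basal transcription, had 8.84, 6.70 and 6.63, and LOC106503506 had 2.0, 2.40 and 1.47. LOC102179149 had 12.7, 9.01 and 17.2 FPKM. BTN1A1, the butyrophilin that coats the milk fat globule and is itself one of the listed epithelial markers, lay 494.4 kb away, with 2940, 1241 and 3788 FPKM. BTN1A1 was thus lowest in the peak library, with log2 ratios of -1.24 peak over early and 1.61 late over peak, opposite to LOC102173795 on the same scaffold. The order of BTN1A1 was that of LOC106503383 on the other scaffold, at a far higher level.

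On the lower side lay PGBD1, derived from a piggyBac transposase (2.44, 3.01 and 1.38 FPKM), and ZSCAN26, a SCAN domain zinc finger gene (1.76, 2.15 and 1.15), both in the order of LOC102173795. ZKSCAN8, also a SCAN domain zinc finger gene, was level, at 6.76, 7.05 and 6.78 FPKM. LOC102177207 had 1.43, 1.39 and 0.951 FPKM, and gene ID 102174990, without a match in the gene table, had 3.29, 2.93 and 1.74. Late over peak, 16 of the 18 genes with an ID were lower, 6 of them at least 2-fold, and the median log2 ratio of the 18 was -0.78. Over all genes and loci, 24.9% were at least 2-fold lower and the median was -0.12. That pool includes the loci without an ID, with a median of -0.20, while the median over protein-coding genes was -0.03. Neither the share over genes with an ID alone nor the share lower by any amount was counted. Of the loci without an ID, by the mean over the 3 libraries, XLOC_043923 was the most abundant on the higher side (5.12, 13.2 and 19.9 FPKM) and XLOC_043846 on the lower side (0.872, 1.78 and 1.10 FPKM).

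**Figure D5:**
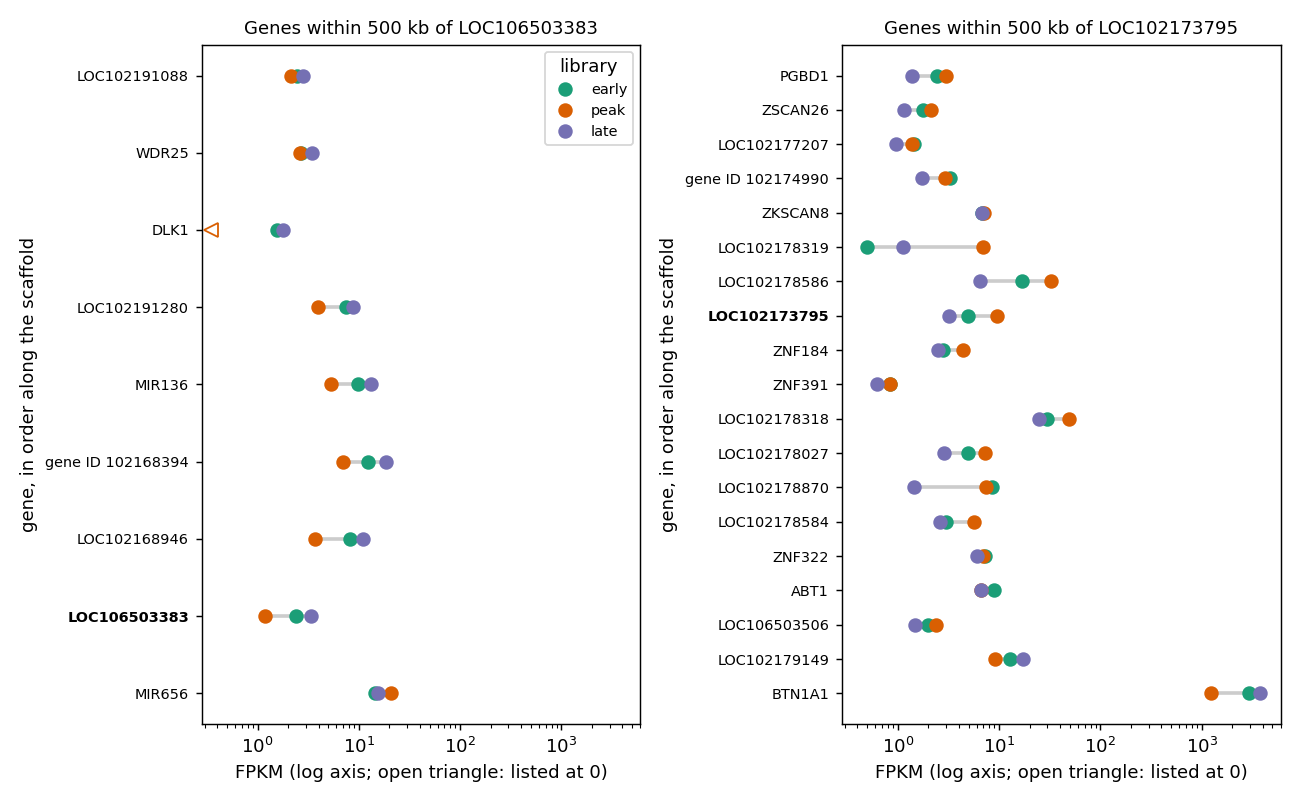
FPKM (log axis) of the genes with an ID within 500 kb of LOC106503383 (left) and of LOC102173795 (right), in their order along the scaffold, with 1 point per library coloured by stage label, a grey line from the lowest to the highest and an open triangle for a value listed at 0. On the left, the peak library is the lowest point for all genes but MIR656, and on the right it is the highest point for LOC102173795 at 9.63 FPKM and the lowest for BTN1A1 at 1241 FPKM.

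Among genes imprinted in several mammals, 10 of 23 listed symbols were found, and they did not share the order of LOC106503383 as a group. Peak over early, 1 was at least 2-fold higher (IGF2) and 1 lower (DLK1), with a median log2 ratio of 0.14. DLK1 counts against a listed 0. Over all genes and loci, those without an ID included, 19.7% were higher and 15.4% lower. The shares over genes with an ID alone were not counted. Late over early, 0 were higher and 1 lower (IGF2), and late over peak 1 was higher (DLK1) and 1 lower (IGF2). IGF2, the gene for a fetal growth factor, had 4.53, 21 and 1.74 FPKM, the order of LOC102173795. By the mean over the 3 libraries, the most abundant of the list were IGF2R, the receptor that clears that factor (32.5, 20.5 and 38.9 FPKM), SNRPN, a splicing protein gene (17.8, 18.8 and 20.7), PLAGL1, a zinc finger transcription factor (9.34, 10.1 and 8.14), and GRB10, an adaptor of insulin signalling (10.2, 6.68 and 10.5). IGF2R and GRB10 had the order of LOC106503383, by less than 2-fold in every comparison.

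Genes whose levels were most like those of each member were sought over the 3 libraries by Euclidean distance of log2(FPKM + 0.1). Among the 440 other lncRNA genes, those nearest to LOC106503383 were LOC106502219 (distance 0.32), with 2.54, 1.43 and 2.93 FPKM, LOC106502652 (0.32), with 2.53, 1.42 and 3.87, and LOC106502825 (0.45), with 2.89, 1.55 and 3.50. Among 13023 protein-coding genes they were CCDC85A (distance 0.13), SVOPL (0.15) and NPAS2 (0.19), the last a circadian transcription factor gene. For LOC102173795 the nearest lncRNA genes were LOC106502886 (0.25), with 4.51, 9.14 and 3.68 FPKM, LOC102173854 (0.63) and LOC102176740 (0.70). The nearest protein-coding genes were AIFM2, an oxidoreductase gene (distance 0.04, with 5.06, 9.42 and 3.21 FPKM), ARRDC2 (0.12) and RCSD1 (0.13). With 3 values per gene, such likeness is a description of levels.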

How the data were processed

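The authors trimmed paired-end reads of stranded libraries, mapped them with TopHat2 2.0.9, built transcripts with Cufflinks 2.1.1, merged them with Cuffmerge and ran Cuffdiff for quantification. By the paper, Bowtie2 served to scan the transcripts. Those recognised as rRNA, as small RNAs such as snoRNA and microRNA precursors, or as pseudogenes were removed for the next analysis. FPKM of 50041 loci were deposited, with a column for each library. Of the deposited values, 43.6% have over 6 significant digits, and 97.6% of these end in 5, as a mean of 2 values with 6 digits would; the cause was not tested.

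Columns were assigned to stages by the sample labels. Rows of one gene ID were summed, and 14403 of 15274 loci with 1 gene ID matched the ARS1.2 gene table, which gave symbols, classes and gene order. The 34764 loci without an ID were kept as they are. Log2 ratios use FPKM as deposited, with 0 set to 0.001 for counts and medians only, and no ratio against a 0 is printed. With 3 unreplicated libraries and no read counts, no test was run.

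Neighbours were all entries that overlap the 500 kb on each side of a member. Named genes were the members, genes within 500 kb, loci that overlap a member or have the highest mean FPKM on each side, list genes found by symbol, the 4 imprinted genes of highest mean FPKM and the 3 nearest patterns per class. The members and lists were chosen with earlier results of these data known. Alternatives were another fold, pseudocounts, centring, other windows, summed loci and exchanged columns. Python 3.11.15 and matplotlib 3.10.9 were used.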

Additional observations from a re-analysis of the deposited data

How the results depend on the processing

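The column labels decided the direction of each member's ratio. With the columns labelled peak and late exchanged, the log2 ratios peak over early, late over early and late over peak became 0.47, -1.04 and -1.51 for LOC106503383 and -0.63, 0.96 and 1.58 for LOC102173795. Neighbours of LOC106503383 at least 2-fold apart then numbered 6 peak over early and 23 late over early, in place of 23 and 6, and list genes of the DLK1-DIO3 domain 0 and 3, in place of 3 and 0. Late over peak, the split of higher and lower neighbours turned from 27 and 0 to 0 and 27 for LOC106503383, and from 2 and 7 to 7 and 2 for LOC102173795, and that of the list from 3 and 1 to 1 and 3. For LOC102173795 it became 2 and 5 peak over early and 3 and 2 late over early. Other settings kept the direction of both members. In the same order of comparisons, a pseudocount of 0.1 gave -0.98, 0.45 and 1.43 for LOC106503383 and 0.94, -0.61 and -1.56 for LOC102173795, and a pseudocount of 1 gave -0.65, 0.35 and 1.0, and 0.83, -0.50 and -1.34. Centring on the median ratio gave 1.48 late over peak for LOC106503383, and -0.62 late over early and -1.61 late over peak for LOC102173795. With the loci of its interval summed, an alternative chosen after seeing the data, LOC106503383 had -1.27, 0.40 and 1.67.

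Counts of neighbours, 23, 6 and 27 for LOC106503383 and 5, 7 and 9 for LOC102173795, fell at 4-fold to 5, 2 and 11 and to 2, 2 and 4. A pseudocount of 1 gave 3, 3 and 14 for LOC106503383, and 4 late over early for LOC102173795. Windows of 250 kb gave 1, 2 and 2 for LOC102173795, and windows of 1000 kb gave 12 late over early for LOC106503383 and 15, 14 and 24 for LOC102173795. At 4-fold, 2 genes of the DLK1-DIO3 list were apart late over peak and, added after seeing the data, 0 imprinted genes late over early. Centring of counts and the pseudocount for imprinted genes were also added then. Under the settings other than the exchange, the values not given here stayed within 1.5 times the reported counts or equal to the reported ratios at 2 decimals. Summing rows could not matter for the members, which have 1 row each. No replicate could be left out. No paired analysis was possible because only 1 library was made per stage. Many loci of the window lie near or under 1 FPKM with unknown read numbers, which limits their ratios.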
